A study of Mus musculus with 10 samples.

Results

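The genes described here are 10 core components of the microRNA machinery: Drosha and Dgcr8, Xpo5, Dicer1 and Tarbp2, the 4 Argonaute genes Ago1, Ago2, Ago3 and Ago4, and Tnrc6a. They were chosen by symbol, and all 10 were found among the 48709 genes of the count tables and among the 16884 genes with enough reads to be tested. The libraries are poly(A) RNA-seq of cultured mouse hippocampal neurons. Lipid nanoparticles delivered an inhibitor of miR-409-5p (anti-miR-409-5p, 4 libraries), an inhibitor of miR-501-3p (anti-miR-501-3p, 4 libraries) or a scramble RNA (control, 2 libraries), and the RNA was taken 48 h later, over days 10 to 12 in vitro. All 3 groups received nanoparticles, so untreated cells are not among them, and the labels give no strain and do not say which libraries came from separate cultures. The p-values below therefore measure the spread between these libraries, which may be technical. The design asks which transcripts differ in level when either microRNA is inhibited, and here the question is put to the machinery on which every microRNA depends.

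A primary microRNA transcript is cut in the nucleus by the Microprocessor, in which Drosha is the nuclease and Dgcr8 its RNA-binding partner. Exportin 5 carries the hairpin to the cytoplasm, Dicer cuts it to a duplex with the help of the RNA-binding protein that Tarbp2 encodes, and an Argonaute protein keeps 1 strand as its guide. The guide pairs through its seed with sites that lie mostly in 3' untranslated regions (UTRs), and GW182 proteins such as Tnrc6a link the Argonaute to the enzymes that shorten the poly(A) tail and remove the cap. In neurons this machinery also works near synapses, where microRNAs limit local protein synthesis.

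The inhibited microRNAs are shown with the seed, bases 2 to 8, in capitals, because the seed defines which matches can occur in the machinery's own transcripts. The sequences are those of RefSeq on GRCm38.p6.
miR-409-5p: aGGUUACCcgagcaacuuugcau
miR-501-3p: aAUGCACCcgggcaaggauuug
miR-409-5p lies at chr12:109743172-109743194 on the plus strand and miR-501-3p at chrX:7241270-7241291 on the minus strand. Their seeds differ, so a match to 1 is not a match to the other. Poly(A) libraries do not hold the mature microRNAs, and the loss of either could not be checked in these data.

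For each gene the longest 3' UTR in the annotation was searched on the mRNA strand for GGTAACC and GTAACCA, the 7-base matches to miR-409-5p, and for GGTGCAT and GTGCATA, those to miR-501-3p. The motifs of a pair overlap by 6 bases, and a stretch that holds both is an 8-base match. The last A of GTAACCA, of GTGCATA and of the 8-base match lies opposite the first base of the microRNA, also an A. That A is counted in the match but does not pair. Pairing thus covers 6 bases of GTAACCA and GTGCATA and 7 of the 8-base match. Matches to miR-409-5p were present in Ago1, Ago2, Ago3 and Tnrc6a, which is 4 of 10 genes, and matches to miR-501-3p in Ago1, Ago3 and Ago4, which is 3 of 10. No such match was present in Drosha, Dgcr8, Xpo5, Dicer1 or Tarbp2. Among all 14277 tested genes with an annotated 3' UTR, 10.4% held a match to miR-409-5p and 13.5% a match to miR-501-3p, and these shares were 27.9% and 34.0% among the 1844 genes whose UTR was at least as long as the members' median of 3539 bases. The Argonaute UTRs are long, at 4491 bases in Ago1, 11064 in Ago2, 12742 in Ago3 and 3682 in Ago4.

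The matches in the Argonaute genes are printed below with 11 bases on either side, 5' to 3' on the mRNA strand. The match is in capitals, any unpaired last A included. They are shown because these genes include both members whose level was higher after an anti-miR, and because Ago1 holds the 8-base match.
Ago1, miR-409-5p, 8-base match: gcctgctggtgGGTAACCAgtgccttcccg
Ago1, miR-501-3p, nearer the stop codon: ttggtttaagtGGTGCATtgtaccgagct
Ago1, miR-501-3p, nearer the UTR end: attgactttctGTGCATAcagtccagcct
Ago2, miR-409-5p, nearer the stop codon: ccttccctgcaGTAACCAtgctggctggc
Ago2, miR-409-5p, nearer the UTR end: taaattggaaaGTAACCAaacagtgggac
Ago3, miR-409-5p: aggtgtgagctGTAACCAatgtgactgtt
Ago3, miR-501-3p, nearer the stop codon: cattacttcatGTGCATAtgtatctagat
Ago3, miR-501-3p, nearer the UTR end: attaatatgtgGGTGCATttgtaggctgt
Ago4, miR-501-3p: tattgaatggtGTGCATAagtgggagaga
In mm10 coordinates, all on the minus strand, the Ago1 stretches lie at chr4:126438756-126438785, chr4:126436618-126436646 and chr4:126435328-126435356. Those of Ago2 lie at chr15:73102661-73102689 and chr15:73097915-73097943, those of Ago3 at chr4:126335235-126335263, chr4:126344993-126345021 and chr4:126333695-126333723, and that of Ago4 at chr4:126492832-126492860. A match is a run of letters in an annotated UTR and was not tested as a site that is used in these cells.

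**Figure D1:**
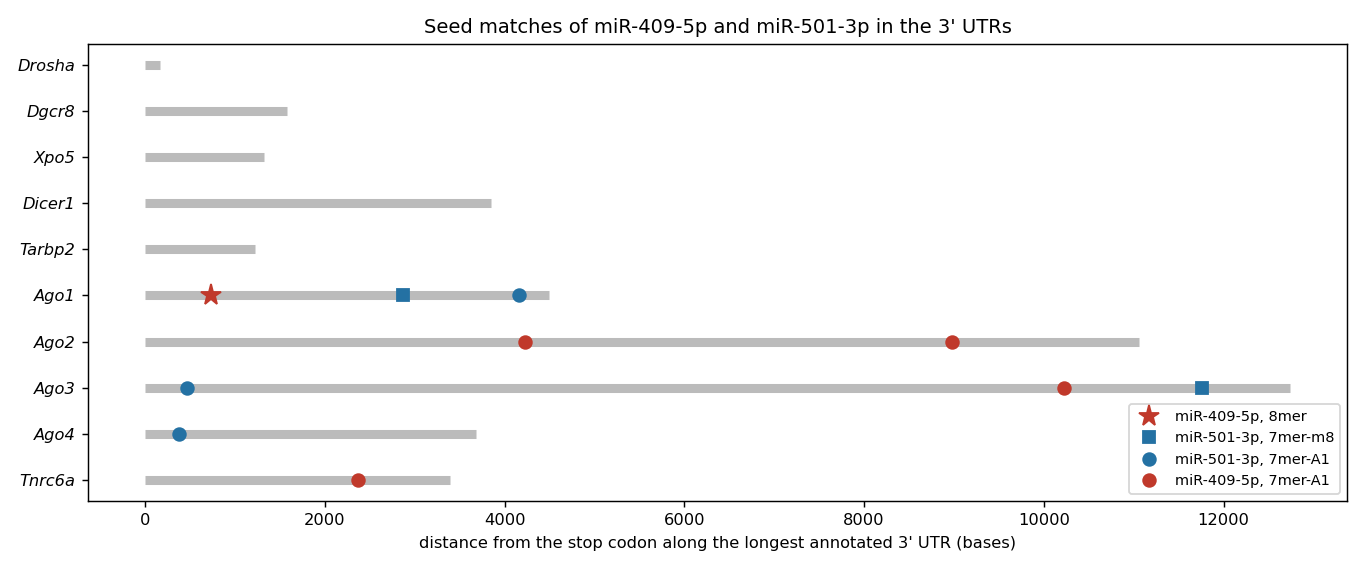
Seed matches along the longest 3' UTR that the annotation gives for a gene. The horizontal axis is the distance from the stop codon in bases, each grey bar is 1 UTR, and each symbol is a match to miR-409-5p (red) or miR-501-3p (blue). The matches fall in the 4 Argonaute genes and Tnrc6a, and the 8-base match is in Ago1.

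The libraries held 22254788 to 32096808 counts each. Levels are given as CPM, the reads of a gene scaled to a common library size with the TMM method, and log2 CPM correlated between 0.986 and 0.998 over all pairs of libraries, with no identical pair. All 10 neuron markers were tested, and their summed level was 7610 to 8025 CPM in anti-miR-409-5p, 7477 to 7982 CPM in anti-miR-501-3p and 7117 to 7240 CPM in control libraries. Astrocyte markers, all 8 of them tested, summed to 4148 to 4386 CPM in anti-miR-409-5p, 4021 to 4209 CPM in anti-miR-501-3p and 3660 to 3806 CPM in control libraries, and no marker was at 0 in all libraries. Both sums were higher in every anti-miR library than in either control library, but single markers went both ways. By edgeR at an adjusted p under 0.05, 7 of the 10 neuron markers were higher and 3 lower after anti-miR-409-5p. After anti-miR-501-3p 6 were higher and 3 lower. Of the 8 astrocyte markers, 4 were higher and 1 lower after anti-miR-409-5p, and 3 higher and 2 lower after anti-miR-501-3p. Of all tested genes, 27.8% were called after anti-miR-409-5p and 33.0% after anti-miR-501-3p. The summed markers of the oligodendrocyte lineage (351 to 636 CPM over all libraries), of endothelial, mural and fibroblast cells (333 to 539), of proliferating progenitors (184 to 272) and of microglia (14.3 to 18.7) overlapped between each anti-miR group and control. In these lists, 2 progenitor markers were called higher and 1 endothelial, mural or fibroblast marker lower after anti-miR-409-5p. After anti-miR-501-3p, 1 progenitor marker, 1 endothelial, mural or fibroblast marker and 1 oligodendrocyte marker were higher, and 1 oligodendrocyte marker was lower. The part of any of these cell types in the results below was not tested. In such bulk RNA, fewer cells of a type and less RNA per cell cannot be told apart. Genes also shifted by base composition. For each library, log2 CPM centred on each gene's mean over the 10 libraries was fitted on GC content. The slope, in log2 units per 10 percentage points, was -0.041 ± 0.068 (SD, n = 4) in anti-miR-409-5p, -0.074 ± 0.058 (SD, n = 4) in anti-miR-501-3p and 0.23 ± 0.047 (SD, n = 2) in control libraries. Centring makes these slopes relative to the mean of all libraries. They show a difference between groups and not which group departs. The slopes of the anti-miR libraries, -0.13 to 0.037, lay apart from those of the control libraries, 0.20 and 0.26.

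All 10 genes were expressed in every library. Per kilobase of merged exons, and averaged over the 10 libraries, Ago1 had the most reads at 23.4 CPM per kb (range 22.6 to 24.0), followed by Drosha at 20.8 (20.04 to 21.8), Ago2 at 15.6 (14.2 to 16.4), Xpo5 at 10.9 (10.2 to 11.6) and Tnrc6a at 8.95 (8.36 to 9.41). Dicer1 had 5.79 CPM per kb (5.37 to 6.19), Dgcr8 4.15 (4.01 to 4.30), Ago3 3.19 (2.497 to 3.60), Ago4 2.06 (1.86 to 2.23) and Tarbp2 1.52 (1.34 to 1.90). Only Ago4 and Tarbp2 were neighbours whose ranges overlapped. With the longest transcript as the length, Drosha came before Ago1, at 27.0 against 26.3 CPM per kb, and Tarbp2 before Ago4, at 2.53 against 2.19 CPM per kb. Among all tested genes, the level per kb of Ago1 stood at the 88.1st percentile, that of Drosha at 86.5, that of Dicer1 at 59.2 and that of Tarbp2 at 34.2.

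**Figure D2:**
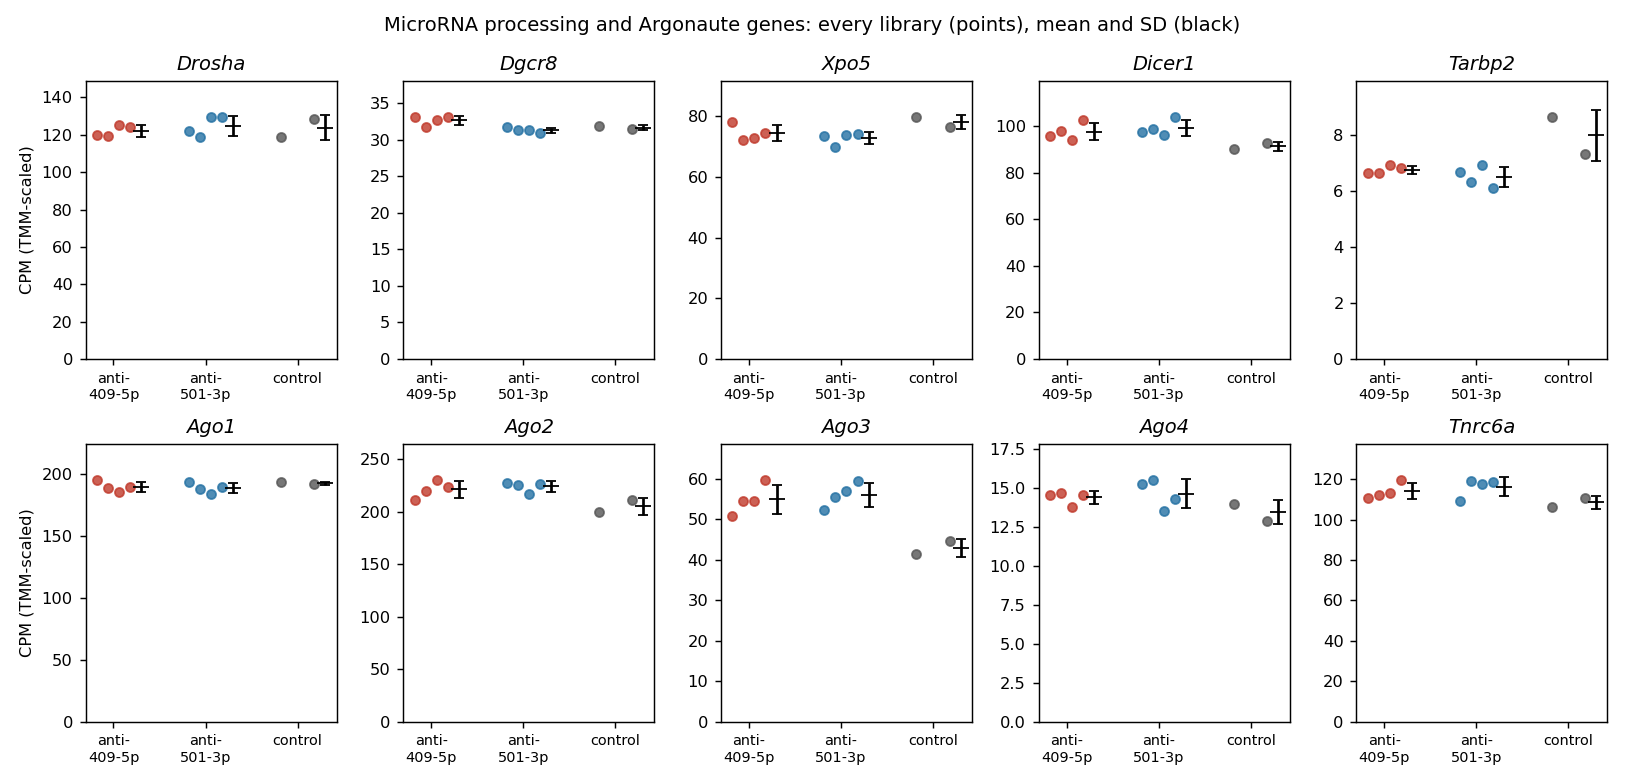
Level of each of the 10 genes in every library, in CPM with TMM library sizes, with each vertical axis starting at 0. Coloured points are libraries, and the black bar is the group mean with its SD. The Ago3 points of both anti-miR groups, 50.9 to 59.7 CPM, lie above both control points, 41.4 and 44.5 CPM, and most other panels are nearly level.

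Ago3 was the gene of the 10 with the largest difference, about 1.3-fold higher after either anti-miR. With the trend of level with GC content and length removed, its values were 0.069 and 0.080 on the log2 scale and not called, and Tarbp2 had the largest difference, -0.12 and -0.17, also not called. Without that step, Ago2, the Argonaute that can cut a paired target, was 1.09-fold higher after anti-miR-501-3p, and Tarbp2 was lower after anti-miR-501-3p at 0.814 of the control level. The other members did not pass the test in either comparison, and no member passed it between the anti-miR groups. By edgeR's quasi-likelihood test with Benjamini-Hochberg adjustment over all tested genes, 1 of 10 members was called after anti-miR-409-5p, beside 27.8% of all tested genes, and 3 of 10 after anti-miR-501-3p, beside 33.0%. At an unadjusted p under 0.05 these were 4 of 10, beside 39.1% of all tested genes, and 6 of 10, beside 42.6%. The members' median absolute log2 fold change was 0.083 after anti-miR-409-5p and 0.11 after anti-miR-501-3p, while that of all tested genes was 0.16 and 0.17. Ago3 and Tarbp2 lay above these medians of all genes in both comparisons. Both comparisons use the same 2 control libraries, so similar values in them are not independent. The alternatives named below are other scalings between libraries (RLE, upper-quartile and total count), the DESeq2 test, a surrogate variable (a hidden factor estimated from the data), and removal of each library's trend of level with GC content and transcript length.

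With TMM scaling, Drosha and Dgcr8 were at nearly the same level in all groups. Drosha (ENSMUSG00000022191; chr15:12824815-12935291, plus strand) was read 2758 to 3927 times per library. Its level was 120, 119, 125 and 124 CPM in anti-miR-409-5p, 122, 119, 129 and 129 CPM in anti-miR-501-3p and 119 and 128 CPM in control libraries. The 3 groups overlapped, and the log2 fold change was -0.018 (95% interval -0.12 to 0.079, adjusted p = 0.81) after anti-miR-409-5p and 0.014 (-0.083 to 0.11, adjusted p = 0.853) after anti-miR-501-3p. The sign of either value changes with the library left out, while the intervals of this fit bound a difference in either direction to about 0.12 log2 units. With the GC and length trend removed, Drosha was 0.043 (-0.048 to 0.13, adjusted p = 0.674) after anti-miR-409-5p. After anti-miR-501-3p it was then 0.091 (1e-04 to 0.18, adjusted p = 0.224), an interval that reaches past that bound.

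Dgcr8 (ENSMUSG00000022718; chr16:18253948-18289246, minus strand) averaged 32.6 ± 0.619 CPM (SD, n = 4) in anti-miR-409-5p, 31.3 ± 0.340 (SD, n = 4) in anti-miR-501-3p and 31.7 ± 0.359 (SD, n = 2) in control libraries. It was the member in which the anti-miR groups did not overlap: 33.0, 31.7, 32.7 and 33.1 CPM in anti-miR-409-5p libraries, against 31.7, 31.3, 31.3 and 30.9 CPM in anti-miR-501-3p libraries. The gap was small and did not pass the test, with a log2 difference of 0.061 (-0.023 to 0.14, adjusted p = 0.872, unadjusted p = 0.144). Exons of Trmt2a on the opposite strand cover 825 of the 7696 exonic bases of Dgcr8 (10.7%), and the kit does not mark strand, so reads there cannot be told apart. The ratio of Drosha to Dgcr8 per kb was 4.85 ± 0.107 in anti-miR-409-5p, 5.18 ± 0.255 in anti-miR-501-3p (SD, n = 4 each) and 5.07 ± 0.332 in control libraries (SD, n = 2), and the ranges overlapped.

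Xpo5 (ENSMUSG00000067150; chr17:46202782-46243598, plus strand), the export receptor, had 78.3, 72.3, 72.8 and 74.6 CPM in anti-miR-409-5p, 73.5, 69.8, 73.7 and 74.3 CPM in anti-miR-501-3p and 79.7 and 76.6 CPM in control libraries. All anti-miR-501-3p libraries lay below both controls, and the anti-miR-409-5p libraries overlapped with them. The log2 fold change was -0.10 ± 0.045 (SE, adjusted p = 0.0952) after anti-miR-501-3p and -0.068 ± 0.045 (SE, adjusted p = 0.28) after anti-miR-409-5p, so neither passed the test. The anti-miR-501-3p difference passes with upper-quartile scaling (adjusted p = 0.0246) or with scaling to the total count (0.0182).

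Dicer1 and Tarbp2, the nuclease and its partner, had differences of opposite sign. Dicer1 (ENSMUSG00000041415; chr12:104687742-104751952, minus strand) had 95.9, 97.9, 93.9 and 102 CPM in anti-miR-409-5p, 97.5, 98.9, 96.2 and 104 CPM in anti-miR-501-3p and 89.9 and 92.7 CPM in control libraries. Every anti-miR library was above both controls, though by little. The log2 fold change was 0.096 ± 0.045 (SE, adjusted p = 0.125) after anti-miR-409-5p and 0.12 ± 0.045 (SE, adjusted p = 0.0533) after anti-miR-501-3p. The second passes with RLE scaling (adjusted p = 0.0434), in DESeq2 (0.0487), when only the anti-miR-501-3p and control libraries are fitted (0.0459), and without replicate 1 of either anti-miR group or replicate 3 or 4 of the anti-miR-409-5p group (the lowest being 0.0378). It is smaller with upper-quartile scaling (0.077, adjusted p = 0.203), total-count scaling (0.069, 0.244), a surrogate variable (0.074, 0.261) and the GC and length trend removed (0.026, 0.743). With the trend removed the anti-miR-409-5p value was -0.0076 (adjusted p = 0.947).

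Tarbp2 (ENSMUSG00000023051; chr15:102518192-102523676, plus strand) was the lowest member, with 153 to 243 reads per library. It had 6.65, 6.64, 6.94 and 6.81 CPM in anti-miR-409-5p, 6.70, 6.32, 6.92 and 6.10 CPM in anti-miR-501-3p and 8.64 and 7.35 CPM in control libraries. Every anti-miR library was below both controls, which differed from each other by more than the libraries within either anti-miR group did. The log2 fold change was -0.30 ± 0.093 (SE, adjusted p = 0.0199) after anti-miR-501-3p, which passed the test, and -0.24 ± 0.093 (SE, adjusted p = 0.0594) after anti-miR-409-5p, which did not. Without control replicate 1 the anti-miR-501-3p value was -0.16 (adjusted p = 0.384), and the call also ends without anti-miR-501-3p replicate 2 (adjusted p = 0.0542) or 4 (0.0572), in DESeq2 (0.0565), with a surrogate variable (0.0607) and with the GC and length trend removed (-0.17, adjusted p = 0.29). The anti-miR-409-5p value passes without control replicate 2 (adjusted p = 0.0378) and with upper-quartile (0.0294) or total-count scaling (0.0271).

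In the authors' deposited table the Tarbp2 log2 fold change was -0.29 (adjusted p = 0.101) after anti-miR-501-3p and -0.23 (adjusted p = 0.194) after anti-miR-409-5p. Neither was past 0.05 there. A pseudogene, Gm18584, shares 723 of the 5054 distinct 50-base words of the Tarbp2 transcripts (14.3%). Only 13 reads over all 10 libraries were assigned to Gm18584, and how reads with several matches were counted is not given in the sources used here, so the level of Tarbp2 is uncertain by the reads of that stretch. Per kb, Dicer1 exceeded Tarbp2 by 3.92 ± 0.179 times in anti-miR-409-5p, 4.15 ± 0.371 times in anti-miR-501-3p (SD, n = 4 each) and 3.12 ± 0.424 times in control libraries (SD, n = 2). The lowest ratio of any anti-miR library was 3.67, above both control ratios, 2.82 and 3.42. The trend with base composition was not removed from these ratios. With the GC and length trend removed, the log2 fold change of Dicer1 was -0.0076 after anti-miR-409-5p and 0.026 after anti-miR-501-3p. That of Tarbp2 was -0.12 and -0.17, and none of these was called.

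Ago1, Ago3 and Ago4 lie next to each other on chromosome 4, all on the minus strand, and Ago2 is on chromosome 15. The 4 proteins all bind microRNAs, and Ago2 is the one known for efficient slicing of targets in mammals. Ago1 (ENSMUSG00000041530; chr4:126435012-126468583) had 195, 189, 185 and 190 CPM in anti-miR-409-5p, 193, 188, 184 and 190 CPM in anti-miR-501-3p and 193 and 192 CPM in control libraries. It was the steadiest member, with a log2 fold change of -0.022 (95% interval -0.10 to 0.056, adjusted p = 0.704) after anti-miR-409-5p. Its UTR holds the 8-base match to that microRNA printed above. After anti-miR-501-3p, to which Ago1 holds the 7-base matches shown above, the log2 fold change was -0.030 (-0.11 to 0.048, adjusted p = 0.578). An increase of more than 0.056 log2 units lies outside both intervals of this fit. With the GC and length trend removed, the intervals were -0.084 to 0.044 after anti-miR-409-5p and -0.071 to 0.057 after anti-miR-501-3p. Whether the matches act in these cells was not tested.

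Ago2 (ENSMUSG00000036698; chr15:73095844-73184935, minus strand) had 211, 220, 230 and 224 CPM in anti-miR-409-5p, 227, 226, 217 and 227 CPM in anti-miR-501-3p and 199 and 211 CPM in control libraries. Every anti-miR library was above both controls, the lowest by a small margin. The log2 fold change was 0.13 ± 0.042 (SE, adjusted p = 0.025) after anti-miR-501-3p, which passed the test, and 0.11 ± 0.042 (SE, adjusted p = 0.0582) after anti-miR-409-5p, which did not. Its matches are to miR-409-5p and not to miR-501-3p.

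The Ago2 call after anti-miR-501-3p ends with upper-quartile scaling (adjusted p = 0.102), total-count scaling (0.143), a surrogate variable (0.0891), the GC and length trend removed (0.168) and without control replicate 1 (0.252). The anti-miR-409-5p value passes with RLE scaling (adjusted p = 0.044), in DESeq2 (0.0389), and without control replicate 2 (0.0499), anti-miR-409-5p replicate 1 (0.0177), anti-miR-501-3p replicate 1 (0.0394) or its replicate 4 (0.0452). Exons of Chrac1 on the opposite strand cover 1.56% of its exonic bases. In the authors' deposited table the Ago2 log2 fold change was 0.13 (adjusted p = 0.0171) after anti-miR-501-3p and 0.12 (adjusted p = 0.0859) after anti-miR-409-5p.

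Ago3 (ENSMUSG00000028842; chr4:126331704-126429556) was read 1163 to 1882 times per library. It had 50.9, 54.4, 54.5 and 59.7 CPM in anti-miR-409-5p, 52.2, 55.4, 56.8 and 59.3 CPM in anti-miR-501-3p and 41.4 and 44.5 CPM in control libraries. The groups did not overlap, and the gap between the nearest anti-miR and control libraries was wider than that between the controls. The log2 fold change was 0.35 ± 0.063 (SE; 95% interval 0.22 to 0.49, adjusted p = 0.000669) after anti-miR-409-5p and 0.38 ± 0.063 (SE; 0.25 to 0.51, adjusted p = 0.000253) after anti-miR-501-3p. The difference between the anti-miR groups was -0.027 (-0.13 to 0.078, adjusted p = 0.955).

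The Ago3 difference passed the test with each library left out in turn, at 0.31 to 0.42 after anti-miR-409-5p (largest adjusted p = 0.0263) and 0.34 to 0.44 after anti-miR-501-3p (0.013). The authors' deposited table gives Ago3 log2 fold changes of 0.36 (adjusted p = 2.48e-05) and 0.39 (adjusted p = 3.84e-07). With the GC and length trend removed the differences were 0.069 ± 0.041 (SE, adjusted p = 0.393) after anti-miR-409-5p and 0.080 ± 0.041 (SE, adjusted p = 0.254) after anti-miR-501-3p, and neither passed. Ago3 has the lowest GC content of the members, 41.8%, beside a median of 49.5% over all tested genes.

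Ago4 (ENSMUSG00000042500; chr4:126489541-126533472) had 14.5, 14.7, 13.8 and 14.5 CPM in anti-miR-409-5p, 15.2, 15.5, 13.5 and 14.3 CPM in anti-miR-501-3p and 14.0 and 12.9 CPM in control libraries, and the groups overlapped. The log2 fold change was 0.10 (95% interval -0.054 to 0.26, adjusted p = 0.329) after anti-miR-409-5p and 0.13 (-0.030 to 0.28, adjusted p = 0.21) after anti-miR-501-3p. The Ago3 fold change lies above both intervals, though the difference between the genes was not tested. With the GC and length trend removed, Ago4 was 0.019 (-0.14 to 0.17) after anti-miR-409-5p and 0.050 (-0.10 to 0.20) after anti-miR-501-3p. The Ago3 values, then 0.069 and 0.080, lay inside these intervals. Of the 50-base words in the Argonaute transcripts, Ago1 shares 121 of 8158 with Ago3 and 4 with Ago2, and Ago4 shares none with another Argonaute, so few reads could be given to the wrong family member.

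Within the family, the share of Argonaute reads per kb that came from Ago3 was 7.43% ± 0.436 in anti-miR-409-5p, 7.55% ± 0.459 in anti-miR-501-3p (SD, n = 4 each) and 6.04% ± 0.245 in control libraries (SD, n = 2). The lowest anti-miR library had 6.93% and the higher control 6.21%. The Ago1 share was 52.5% ± 1.30 in anti-miR-409-5p, 52.0% ± 0.403 in anti-miR-501-3p (SD, n = 4 each) and 55.3% ± 0.942 in control libraries (SD, n = 2), with the highest anti-miR library at 54.3% and the lower control at 54.7%. The shares do not depend on the scaling between libraries, and the trend with base composition was not removed from them. With the GC and length trend removed, the log2 fold change of Ago3 was 0.069 after anti-miR-409-5p and 0.080 after anti-miR-501-3p, and that of Ago1 was -0.020 and -0.0067, with none of them called. Ago2 gave 35.4% ± 1.16 in anti-miR-409-5p, 35.7% ± 0.179 in anti-miR-501-3p and 34.1% ± 1.00 in control libraries. Ago4 gave 4.66% ± 0.139 in anti-miR-409-5p, 4.71% ± 0.238 in anti-miR-501-3p and 4.51% ± 0.307 in control libraries. The Ago2 shares of anti-miR-409-5p and the Ago4 shares of both anti-miR groups overlapped with the control shares. The ratio of Ago3 to its neighbour Ago1 per kb was 0.142 ± 0.0109 in anti-miR-409-5p, 0.145 ± 0.00951 in anti-miR-501-3p and 0.109 ± 0.00629 in control libraries.

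**Figure D3:**
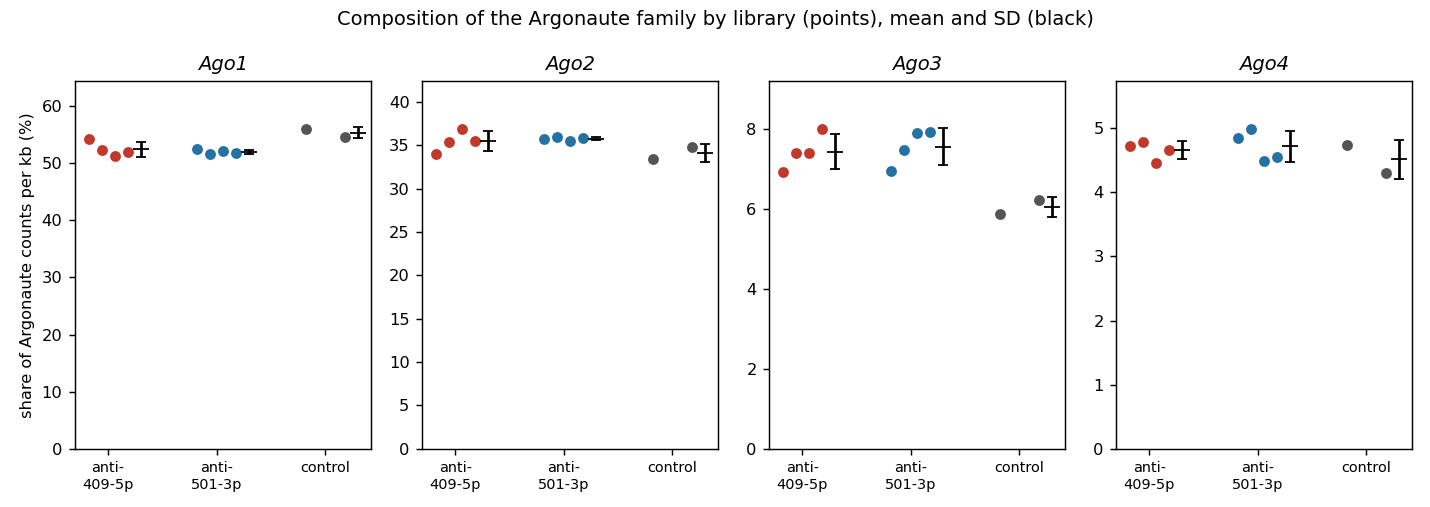
Share of each Argonaute gene in the family's counts per kb of merged exons, in percent, with each vertical axis starting at 0. Coloured points are libraries, and the black bar is the group mean with its SD. Ago3 made up 6.93% to 7.998% in the anti-miR libraries and 5.87% and 6.21% in the control libraries.

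Tnrc6a (ENSMUSG00000052707; chr7:123123885-123195296, plus strand), the GW182 gene, had 111, 112, 113 and 120 CPM in anti-miR-409-5p, 109, 119, 117 and 119 CPM in anti-miR-501-3p and 106 and 111 CPM in control libraries. The groups overlapped, and the log2 fold change was 0.070 ± 0.046 (SE, adjusted p = 0.279) after anti-miR-409-5p and 0.098 ± 0.046 (SE, adjusted p = 0.111) after anti-miR-501-3p. The anti-miR-501-3p value passes without replicate 1 of that group (adjusted p = 0.0232), and is smaller with upper-quartile scaling (0.057, adjusted p = 0.343), total-count scaling (0.049, 0.408), a surrogate variable (0.054, 0.436) and the GC and length trend removed (0.0089, 0.923). With the trend removed the anti-miR-409-5p value was -0.029 (adjusted p = 0.728). The match to miR-409-5p in its UTR is a 7-base one.

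Between the anti-miR groups, 0 of 10 members were called by edgeR, beside 0.00% of all tested genes, and 0 of 10 had an unadjusted p under 0.05, beside 5.88%. DESeq2 called 0 members and 3 genes in all. With the replicate number as a block, edgeR called 252 genes (1.49%) and again 0 of 10 members, the lowest adjusted p being 0.546 for Dgcr8. The widest interval, that of Tarbp2, ran from -0.11 to 0.22 log2 units, and that of Ago1 from -0.056 to 0.072. The groups did not overlap in 1 of 10 members, Dgcr8, beside 3.47% of all tested genes. Against the controls the groups did not overlap in 4 of 10 members after anti-miR-409-5p (Dicer1, Tarbp2, Ago2 and Ago3), beside 48.0% of all tested genes, and in 5 of 10 after anti-miR-501-3p (these and Xpo5), beside 49.9%.

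With the GC and length trend removed from every gene, 0 of 10 members passed the test in either comparison against control, beside 7.46% of all tested genes after anti-miR-409-5p and 10.1% after anti-miR-501-3p. The members' values then ran from -0.12 (Tarbp2) to 0.069 (Ago3) after anti-miR-409-5p and from -0.17 (Tarbp2) to 0.091 (Drosha) after anti-miR-501-3p. Before that step the members with the highest GC content, Tarbp2 at 54.1%, and the lowest, Ago3 at 41.8%, were also those with the lowest and the highest fold change. Other scalings also moved the balance over all genes: 2634 genes were higher and 2062 lower after anti-miR-409-5p with TMM, and 2233 higher and 3074 lower with upper-quartile scaling. After anti-miR-501-3p these were 2974 higher and 2605 lower with TMM, and 2540 higher and 3607 lower with upper-quartile scaling.

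**Figure D4:**
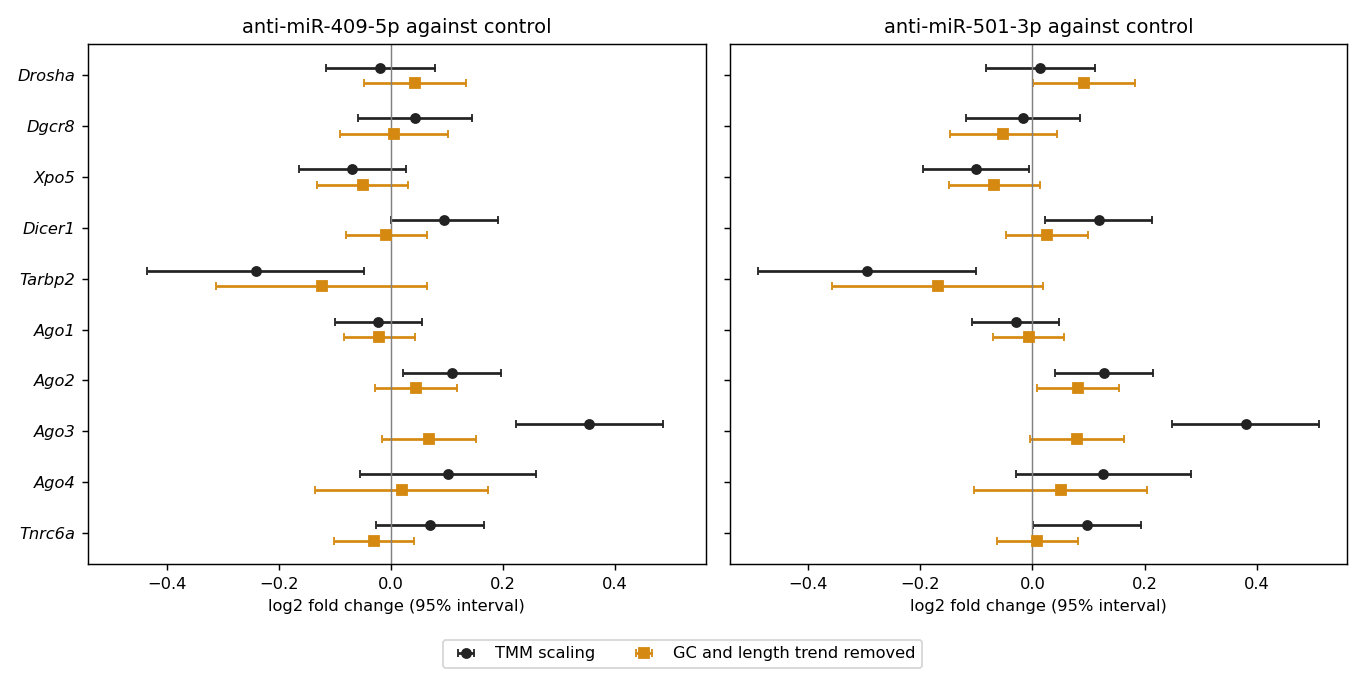
Log2 fold change of each gene after anti-miR-409-5p (left) and anti-miR-501-3p (right) against control, with 95% intervals. Black circles are from counts scaled by TMM, and orange squares are from the fit with the trend in GC content and length removed. The Ago3 values, 0.35 and 0.38, are 0.069 and 0.080 with the trend removed.

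To see the members beside the rest of the pathway, 114 other genes were set in 6 lists by role, and 113 of them were tested. After anti-miR-409-5p, 39 were higher and 6 lower, 39.8% of those tested beside 27.8% of all tested genes, and after anti-miR-501-3p 41 were higher and 12 lower, 46.9% beside 33.0%. Their median log2 fold change was 0.044 after anti-miR-409-5p and 0.029 after anti-miR-501-3p, beside -0.012 over all tested genes in both. Base composition moved with these calls: median GC content was 42.7% in the higher genes, 53.8% in the lower and 49.7% in those not called after anti-miR-409-5p, and 42.7%, 54.9% and 49.3% after anti-miR-501-3p. With the GC and length trend removed, 11 of the 113 were higher and 7 lower after anti-miR-409-5p, beside 7.46% of all tested genes called. After anti-miR-501-3p 10 were higher and 9 lower, beside 10.1%. No gene of the lists was called between the anti-miR groups, where their median difference was 0.0058. With the replicate number as a block 1 was, Elavl2, lower in anti-miR-409-5p than in anti-miR-501-3p at -0.12 (adjusted p = 0.00972, and 0.871 without the block). In the account of each list, a pair of values gives the log2 fold change after anti-miR-409-5p and then that after anti-miR-501-3p, both against control, with edgeR's adjusted p in brackets.

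**Figure D5:**
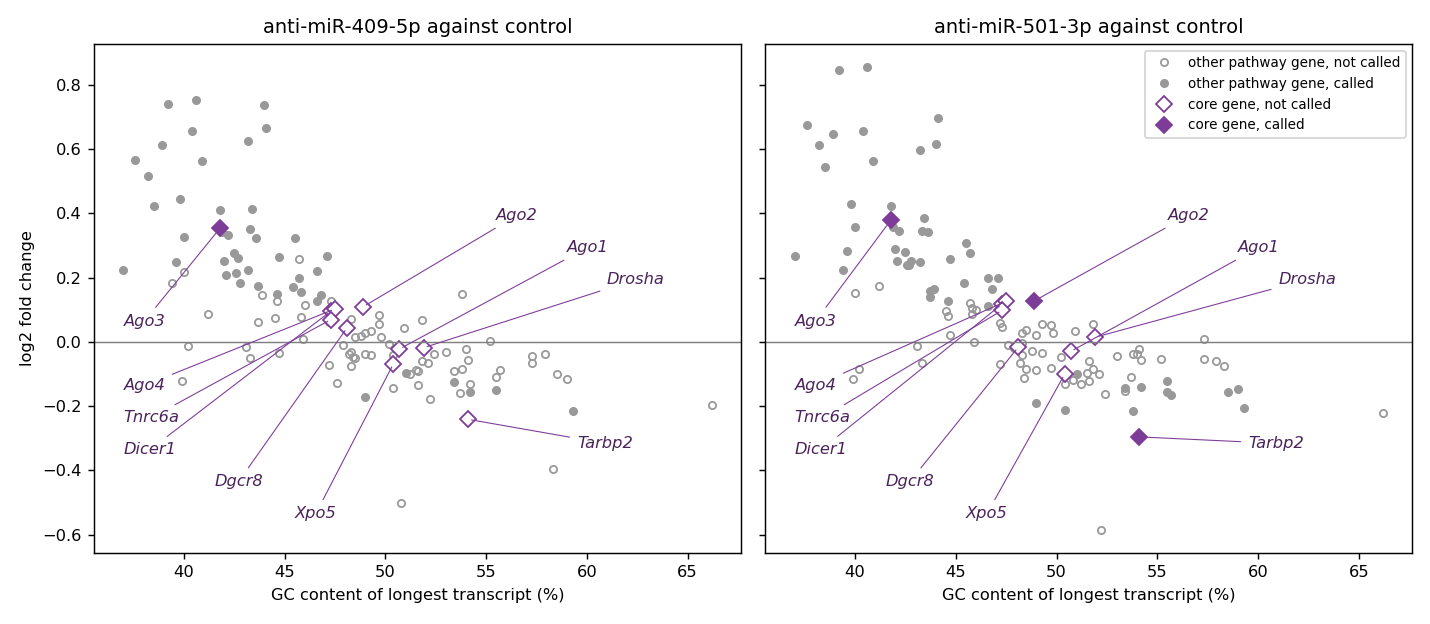
Log2 fold change after anti-miR-409-5p (left) and anti-miR-501-3p (right) against control, plotted against the GC content of the longest transcript in percent. Diamonds are the 10 core genes, circles are the other pathway genes, and filled symbols passed the test. Higher genes lie mostly at low GC content, and Ago3 at 41.8% lies among them.

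Among the nuclear cofactors of processing and export, 7 of 24 genes were higher and 2 lower after anti-miR-409-5p, and 7 were higher and 4 lower after anti-miR-501-3p, with list medians of -0.017 and -0.027. The called shares, 37.5% and 45.8%, stood beside 27.8% and 33.0% of all tested genes. Srsf3, a splicing factor that binds primary microRNA transcripts in human cells, was higher by 0.56 ± 0.055 (SE, adjusted p = 9.21e-06) on the log2 scale after anti-miR-409-5p and by 0.56 ± 0.055 (SE, adjusted p = 4.13e-06) after anti-miR-501-3p. Ddx5, a helicase that associates with Drosha, was higher by 0.35 (adjusted p = 0.000116) and 0.35 (8.26e-05). The splicing factor gene Sf3b1 was higher by 0.21 (0.00378) and 0.25 (0.000777). With the GC and length trend removed, Srsf3 (0.29 after anti-miR-409-5p and 0.25 after anti-miR-501-3p) and Ddx5 (0.18 and 0.15) still passed. Sf3b1 did not pass (-0.040, adjusted p = 0.514, and -0.018, adjusted p = 0.786), and its call after anti-miR-409-5p also ended without control replicate 1 (0.0783).

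Among Dicer's partners and the chaperones that load Argonaute, 3 of 14 genes were higher and 2 lower after anti-miR-409-5p, and 4 were higher and 3 lower after anti-miR-501-3p. These shares, 35.7% and 50%, stood beside 27.8% and 33.0% of all tested genes. Ptges3, the Hsp90 co-chaperone p23, was higher by 0.62 ± 0.083 (SE, adjusted p = 7.37e-05) after anti-miR-409-5p and by 0.60 ± 0.082 (SE, adjusted p = 5.99e-05) after anti-miR-501-3p, and by 0.49 (0.000159) and 0.43 (0.000302) with the GC and length trend removed. Dnaja2, an Hsp40 chaperone, was higher by 0.22 (adjusted p = 0.000796) and 0.24 (0.000246), and by 0.020 and 0.018, without passing, with the trend removed. Hspa4, of the Hsp70 family, was higher by 0.13 (0.0162) and 0.11 (0.0237), and Hsp90ab1, which encodes a form of Hsp90, was lower at -0.097 (0.0221) and -0.10 (0.0137). Snd1, a nuclease found with Argonaute complexes, was lower at -0.17 (0.0275) and -0.19 (0.0126). Fkbp4, another Hsp90 co-chaperone, was lower after anti-miR-501-3p at -0.16 (0.0108) and did not pass after anti-miR-409-5p (-0.11, adjusted p = 0.0723), and the difference between the anti-miR groups did not pass either (0.878).

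The calls of Hspa4 and Hsp90ab1 after anti-miR-409-5p, and those of Fkbp4 and Snd1 after anti-miR-501-3p, rested on few libraries. Without control replicate 1 the adjusted p was 0.135 for Hspa4 and 0.328 for Fkbp4. The Hsp90ab1 call ended without either control or without anti-miR-409-5p replicate 2 or 3 (up to 0.271), and the Snd1 call ended without either control (up to 0.0964). With the trend removed, Snd1 still passed (-0.20, adjusted p = 0.0335), while Hspa4 (0.437), Hsp90ab1 (0.562) and Fkbp4 (0.935) did not.

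Among the GW182 paralogs and genes of P-bodies, the granules where repressed mRNAs collect, 4 of 18 genes were higher and 1 lower after either anti-miR, which is 27.8% beside backgrounds of 27.8% and 33.0%. Ddx6, a helicase of translational repression, was higher by 0.42 ± 0.052 (SE, adjusted p = 4.94e-05) after anti-miR-409-5p and by 0.39 ± 0.052 (SE, adjusted p = 4.28e-05) after anti-miR-501-3p, and by 0.22 and 0.18 with the GC and length trend removed, where it passed in both (0.000162 and 0.000671). The 5' exonuclease gene Xrn1 was higher by 0.34 (0.000453) and 0.36 (2e-04), and the decapping enzyme gene Dcp2 by 0.26 (0.000508) and 0.24 (0.000672). Both lost their calls with the trend removed, with adjusted p-values from 0.382 to 0.912. The decapping scaffold gene Edc4 was lower at -0.15 (0.0224) and -0.12 (0.0486), and the Tnrc6a paralog Tnrc6b was higher by 0.15 (0.0386) and 0.16 (0.0174). The Edc4 call after anti-miR-409-5p ended with the trend removed (0.73) and without control replicate 1 or either of replicates 3 and 4 of anti-miR-409-5p (up to 0.467), and the Tnrc6b call after anti-miR-501-3p with the trend removed (0.375) and without control replicate 1 (0.138).

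Among the deadenylases and their regulators, which shorten poly(A) tails, 6 of 17 genes were higher and 0 lower after anti-miR-409-5p, and 7 were higher and 1 lower after anti-miR-501-3p. These shares, 35.3% and 47.1%, stood beside 27.8% and 33.0% of all tested genes. Of the genes of catalytic subunits, Cnot6, Cnot7 and Cnot6l were called and Cnot8 (-0.050, adjusted p = 0.504, and -0.086, 0.211) and Pan2 (-0.10, 0.258, and -0.13, 0.131) were not. Cnot6 was higher by 0.45 ± 0.062 (SE, adjusted p = 0.000101) after anti-miR-409-5p and by 0.43 ± 0.062 (SE, adjusted p = 8.48e-05) after anti-miR-501-3p, Cnot7 by 0.52 (0.00126) and 0.61 (0.000296), and Cnot6l by 0.57 (0.00482) and 0.67 (0.0014). The 3 called genes have a GC content under 40%, and with the GC and length trend removed none of them passed, with adjusted p-values from 0.0503 to 0.737. The Cnot6l call after anti-miR-409-5p also ended without control replicate 1 (0.067). Pan3, the regulatory subunit of the other deadenylase, was higher by 0.27 (0.00376) and 0.20 (0.0177). After anti-miR-409-5p it also passed with the trend removed (0.18, adjusted p = 0.0335), but not without control replicate 1 (0.0932). Cnot4, which encodes a ubiquitin ligase, was higher by 0.22 (0.015) and 0.27 (0.00396). After anti-miR-501-3p it was lower at -0.31 (0.000178) with the trend removed, so its direction turned, and its call ended without control replicate 1 (0.0965).

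Among the genes of tailing, trimming and microRNA turnover, 17 of 18 were tested, Lin28a being the exception, and 7 were higher and 1 lower after anti-miR-409-5p, and 7 higher and 2 lower after anti-miR-501-3p. The called shares of the 17, 47.1% and 52.9%, stood beside 27.8% and 33.0% of all tested genes. Papd5, which encodes a poly(A) polymerase that extends small RNAs, was higher by 0.32 ± 0.055 (SE, adjusted p = 0.000465) after anti-miR-409-5p and by 0.31 ± 0.054 (SE, adjusted p = 0.000463) after anti-miR-501-3p, and by 0.21 (0.00378) and 0.19 (0.00695) with the GC and length trend removed. Tut4, a uridylyltransferase of microRNA precursors, was higher by 0.28 (0.0013) and 0.28 (0.000889), and Tsn, which encodes translin, by 0.17 (0.00501) and 0.18 (0.00225). Eri3, of a family of 3' exonucleases, was lower at -0.21 (0.00196) and -0.21 (0.00184). None of these last 3 passed with the trend removed (adjusted p from 0.565 to 0.873), and without control replicate 1 the calls of Eri3 ended in both comparisons (0.0568 and 0.0538) and that of Tsn after anti-miR-409-5p (0.0791).

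Among the RNA-binding proteins found with the silencing complex and its import receptors, 12 of 23 genes were higher and 0 lower after anti-miR-409-5p (52.2%), and 12 were higher and 1 lower after anti-miR-501-3p (56.5%), the highest share of the 6 lists in each comparison. Of all tested genes, 27.8% and 33.0% were called. The list shares come from the fit that keeps the trend in GC content and length. Tnpo1, the nuclear import receptor transportin 1, was higher by 0.65 ± 0.071 (SE, adjusted p = 4.61e-05) after anti-miR-409-5p and by 0.66 ± 0.071 (SE, adjusted p = 2.15e-05) after anti-miR-501-3p, and by 0.31 and 0.28 with the GC and length trend removed, where it passed in both (4.65e-05 and 5.75e-05). Dhx36, a helicase of G-quadruplex RNA, was higher by 0.33 (4.81e-05) and 0.36 (1.06e-05), and the Pumilio gene Pum2 by 0.33 (9.25e-05) and 0.35 (3.72e-05). The RNA-binding protein gene Rbm4 was higher by 0.74 (0.000553) and 0.62 (0.00148), and after anti-miR-409-5p by 0.59 (0.00413) with the trend removed. Elavl2, which encodes a neuronal protein that binds AU-rich RNA, was higher by 0.42 (0.00134) and 0.54 (0.000171). With the trend removed, Dhx36 (-0.017 and -0.027), Pum2 (0.087 and 0.085) and, after anti-miR-501-3p, Elavl2 (0.075) did not pass (adjusted p from 0.0893 to 0.892).

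Of the 24 genes named from the lists after each anti-miR, 9 after anti-miR-409-5p and 7 after anti-miR-501-3p were called in the same direction with the GC and length trend removed. Of all tested genes, 7.46% and 10.1% were then called in either direction. With 1 surrogate variable 16 and 21 were called, beside 6.02% and 21.5% of all tested genes. The 24 genes were picked by their small p in these same libraries, so the counts are no independent support for the calls.

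The genes whose profile over the 10 libraries was most like that of a member were found by the root mean square (RMS) difference of centred log2 CPM. For Ago3, whose own RMS deviation was 0.16, these were Rgs7bp, which binds regulators of G-protein signalling, at an RMS difference of 0.012, and the nuclear import receptor gene Ipo7 at 0.022, where the median over all tested genes was 0.22. The nearest member to Ago3 was Dicer1 at 0.12. For Tarbp2, with an own deviation of 0.13, Tmem94 (0.044) and the kinase gene Map2k3 (0.047) were nearest, and Xpo5 was the nearest member (0.10). Ago2 was most like Basp1 (0.018), Dicer1 most like Tjp1 (0.022) and Tnrc6a most like Son (0.020), and Dicer1 and Tnrc6a lay 0.038 from each other. For the other members the nearest genes were Snx7 for Drosha (0.025), Rnf169 for Dgcr8 (0.017), Pacsin1 for Xpo5 (0.021), 2610507B11Rik for Ago1 (0.012) and Tdrp for Ago4 (0.037). Their own deviations ran from 0.0264 for Ago1 to 0.0755 for Ago4. These profiles share their libraries and depth, and the part of base composition in their likeness was not tested.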

How the data were processed

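Raw read counts per gene, one table per library, were deposited by the authors. The submitters' processing notes name FastQC 0.11.5, STAR 2.5.2b, featureCounts, Subread 1.5.1 and mm10, and the annotation release, strand setting and treatment of multi-mapping reads are not given in the sources used here. The authors also deposited comparison tables with log2 fold changes, p-values, test-statistic scores and normalized signal. Only their fold changes and adjusted p-values for Tarbp2, Ago2 and Ago3 are quoted. Symbols, exons and UTRs come from GENCODE M21.

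Counts of all 10 libraries were fitted together in edgeR 4.0.16 (R 4.3.3) with TMM scaling, the default low-count filter, a robust quasi-likelihood F test, 2-sided, and Benjamini-Hochberg adjustment over 16884 genes at 0.05. Standard errors are the fold change divided by the square root of F. CPM values use TMM library sizes, and profiles a prior count of 2. Under the scalings tried, the median log2 fold change over all genes ran from -0.056 (total count) to -0.0041 (RLE) after anti-miR-409-5p. After anti-miR-501-3p it ran from -0.061 (total count) to -0.0057 (RLE). The members' median was 0.057 and 0.056 with TMM, and 0.012 and 0.0069 with total-count scaling. Alternatives were other scalings, DESeq2 1.42.0, no filter, only the groups compared, a surrogate variable (sva 3.50.0), the replicate number as a block, removal of a trend in GC content and length (a spline with 5 degrees of freedom per library), and each library left out. The labels do not say what a replicate number marks. Deviations from the group means of the 4 same-numbered pairs of anti-miR libraries correlated at 0.121 to 0.375. Pairs of unlike number between these groups correlated at -0.333 to 0.177, so the ranges overlap. For 7 of 8 libraries the best match had the same number, and the numbers were taken, from the data alone, to pair those libraries. The main fit does not use these pairs. The fit was tested on simulated counts.

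The members, the lists and the tests were chosen with earlier results of these data known. The named genes are all members, up to 4 called genes of smallest p from each list per comparison, and the nearest 2 genes in profile for each member, of which the report gives part, and 1 gene that the rule names is not reported here. Intervals at 95% cover the spread between these libraries.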

Additional observations from a re-analysis of the deposited data

Results flagged for a closer look

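Of 44 groups of 4 libraries examined among the members' levels and ratios, 1 held a library far from the others, where chance gives about 1 in 20. Ago2 in anti-miR-501-3p replicate 3 was at 216.5 CPM, while the other 3 replicates had 226 to 227 CPM, and it stood above both control libraries (199 and 211 CPM).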

How the results depend on the processing

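Ago3 kept its direction and its call in both comparisons against control under all scalings, DESeq2, the surrogate variable and each left-out library, and lost the call only with the GC and length trend removed. The number of members called after anti-miR-409-5p (1) was 2 with RLE, upper-quartile or total-count scaling and in DESeq2, and 0 with the trend removed. After anti-miR-501-3p (3) it was 1 with a surrogate variable and 0 with the trend removed. After anti-miR-409-5p it was also 2 without anti-miR-409-5p replicate 1, beside 30.3% of all tested genes called. The same held without anti-miR-501-3p replicate 1 (beside 29.4%) or 4 (beside 28%). After anti-miR-501-3p it was 5 without anti-miR-501-3p replicate 1, beside 36.1%, and the Tarbp2 call ended without replicate 2 or 4 of that group. Fits without a control library leave 1 library in that group and are not among these counts. Of the other pathway genes, 45 after anti-miR-409-5p became 18 with the trend removed, 18 with a surrogate variable (all higher) and 21 to 52 with each library left out (21 without control replicate 1), and 53 after anti-miR-501-3p became 19 with the trend removed and 26 to 56 with each library left out (26 without control replicate 1). With total-count scaling 2193 of all genes were higher and 3209 lower after anti-miR-409-5p, and 2452 higher and 3779 lower after anti-miR-501-3p. The share of all tested genes called also moved, so counts from different settings cannot be compared alone. After anti-miR-409-5p it was 27.8% in the main fit, 24.9% in DESeq2 and 27.3% to 32% with the other scalings. It was 6.02% with a surrogate variable and 7.46% with the trend removed. After anti-miR-501-3p the share was 33.0% in the main fit, 21.5% with a surrogate variable and 10.1% with the trend removed.

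Against control, where each anti-miR group shares 2 replicate numbers with the controls, same-numbered libraries correlated in their deviations at 0.042 to 0.359, too few pairs to treat the numbers as pairs. With the replicate number as a block, 2 members were called after anti-miR-409-5p, beside 28.9% of all tested genes, and 5 after anti-miR-501-3p, beside 33.9%. Between the anti-miR groups 1 other pathway gene was called (Elavl2), beside 1.49%. Drosha turned to -0.028 after anti-miR-501-3p. With the block and the trend removed, 0 members were called after either anti-miR, beside 7.68% of all tested genes after anti-miR-409-5p and 10.9% after anti-miR-501-3p. Of the other pathway genes, 22 and 20 were called. Dicer1 (-0.0019) and Tnrc6a (-0.041) changed sign after anti-miR-409-5p, and Ago1 (0.0089) and Tnrc6a (-0.0033) after anti-miR-501-3p. Ago1 (-0.014) also changed sign between the anti-miR groups.

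The other changes of sign were in members near 0. Drosha after anti-miR-501-3p was -0.027 with upper-quartile scaling, -0.035 with total-count scaling and -0.022 with a surrogate variable, and Dgcr8 after anti-miR-409-5p was -7e-04 with total-count scaling. With the trend removed, Drosha was 0.043, Dicer1 -0.0076 and Tnrc6a -0.029 after anti-miR-409-5p, and Ago1 -0.014 between the anti-miR groups. With each library left out, Drosha ran from -0.059 to 0.045 after anti-miR-409-5p and from -0.028 to 0.076 after anti-miR-501-3p, and Dgcr8 from -0.022 to 0.0072 after anti-miR-501-3p. Between the anti-miR groups Ago1 ran from -0.0056 to 0.022, Ago2 from -0.035 to 0.0036, Ago3 from -0.071 to 0.0086, Ago4 from -0.058 to 0.0048 and Dicer1 from -0.047 to 0.0024. With the longest transcript as length, the Ago1 share was 54.7% in anti-miR-409-5p, 54.2% in anti-miR-501-3p and 57.5% in control libraries, and the Ago2 share 33.4% in anti-miR-409-5p, 33.7% in anti-miR-501-3p and 32.1% in control libraries. The causes of these changes were not tested. With 2 control libraries, 1 of them decides many calls, and Tarbp2, at 153 to 243 reads per library, has the widest intervals.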
